A study of Mus musculus with 514 samples.

Results

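Nr5a2 can be missing from a 2-cell mouse embryo in more than one way. In maternal-zygotic knockouts (mz_NrKO) the egg lacks it and the embryo cannot make it, whereas in zygotic knockouts (z_NrKO) the egg was laid down with the gene and only the embryo's own alleles are lost. The libraries described here are the full-length RNA-seq libraries of single late 2-cell (L2C) embryos labelled mz_NrKO (10 embryos) or z_NrKO (6 embryos), 16 of the 514 samples in the series. They were chosen by their labels alone, all are dated 8 March 2022, and comparing them asks what loss of the maternal store adds to zygotic loss. The series profiled single oocytes and embryos lacking the nuclear receptors Nr5a2, Esrrb or both, and its late 2-cell stage has 46 embryos in 6 groups. Of the other groups, z_NrHet (7 embryos) is heterozygous for the Nr5a2 deletion, mz_DHet (7 embryos) is heterozygous for the deletions of both genes per the file headers, mz_EKO (10 embryos) lacks Esrrb and mz_DKO (6 embryos) lacks both. The Cre driver, the mothers and the litters are not given in the sources used here. All 7 z_NrHet embryos are dated 8 March too, whereas 5 of the mz_DHet embryos are dated 22 May, 2 of mz_EKO 17 June and 2 of mz_DKO 22 May. On 8 March the mz embryos carry embryo numbers from 1 to 26 and the z embryos from 29 to 58, so the cross and the kind of loss go together and cannot be told apart in a direct comparison.

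Nr5a2, also called LRH-1, is an orphan nuclear receptor that binds DNA as a monomer at an extended half-site and activates genes in liver, pancreas, ovary and early embryo. The mouse egg stores its own messages and proteins, many of which are degraded during the 2-cell stage while the embryonic genome is switched on. Esrrb is a related orphan receptor of the pluripotency network that recognises a similar half-site.

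The targeted gene was measured first. Nr5a2 (chr1:136842571-136960448, mm10) stood at a lowest, median and highest level of 113.8, 533 and 799 TPM, transcript abundance corrected for length and library total, in the 10 mz_NrKO embryos. In the 6 z_NrKO embryos it stood at 435, 669 and 859 TPM. The groups overlapped, and 4 of the 10 mz_NrKO embryos were below every z_NrKO embryo. The log2 difference (mz_NrKO minus z_NrKO, on log2(TPM + 1) as for all log2 differences here) was -0.68 ± 0.29 (standard error) and did not pass in limma (Benjamini-Hochberg adjusted p = 0.195). The z_NrHet embryos ranged from 305 to 594 TPM and the mz_DHet embryos from 329 to 648 TPM, so the message was not lower in the knockouts than in heterozygous embryos. The deleted exons are not given in the sources used here, so a level summed over the gene does not check the genotypes. Esrrb (chr12:86361117-86521628) had a median of 13.4 TPM in mz_NrKO, between 4.09 and 56.9, and of 39.7 TPM in z_NrKO, between 13.4 and 74.9. Its difference of -1.24 ± 0.49 did not pass either (adjusted p = 0.158), and its median was 33.9 TPM in z_NrHet, 11.4 in mz_EKO, 12.5 in mz_DKO and 13.5 in mz_DHet. Within these medians the z groups lie above the mz groups, with overlapping ranges in z_NrHet and mz_DHet.

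Before the comparison, 1 library stood apart. Each embryo was placed on an axis over 17694 genes. Position 0 was the mean of control embryos at the early 2-cell stage (E2C). These were 21 mz_Nrpp (wild-type or floxed alleles) and 29 mz_NrHet embryos (heterozygous for Nr5a2). Position 1 was the mean of the mz_DHet and z_NrHet embryos at the late stage. No E2C embryo shares a date with an L2C embryo, so the axis holds date as well as stage. Library 6 of mz_NrKO sat at 0.558, with the lowest TPM sum of the stage (887003). The mz_NrKO embryos had a lowest, median and highest position of 0.558, 0.911 and 1.02, and the z_NrKO embryos of 0.899, 1.02 and 1.03. The mz_NrKO embryos lay nearer to the early stage on average, with overlap, and the mean difference was -0.131 (exact permutation test, two-sided, p = 0.0313, n = 10 and 6). Without library 6 it was -0.0970 (exact permutation test, p = 0.0306, n = 9 and 6). Embryos of mz_EKO on the same date spanned 0.773 to 0.999, and those of z_NrHet 0.940 to 1.037. Genes above 1 TPM numbered 13802 to 15941 in mz_NrKO and 12889 to 14568 in z_NrKO embryos, a mean difference of 1327 (exact permutation test, p = 0.00137, n = 10 and 6). Whether position or gene detection contributes to the differences below was not tested by any independent measure. The same embryos were also read as UMI libraries, which mark transcript starts. Across 8186 genes, 12 of the 16 full-length libraries correlated best with the UMI library of their own number, whereas libraries 3, 4, 5 and 6 of mz_NrKO correlated best with UMI libraries 4, 5, 6 and 3. The numbers therefore differ between the read kinds within mz_NrKO, which leaves a comparison of groups as it is, and full-length library 6 matches UMI library 3 (r = 0.755).

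**Figure D1:**
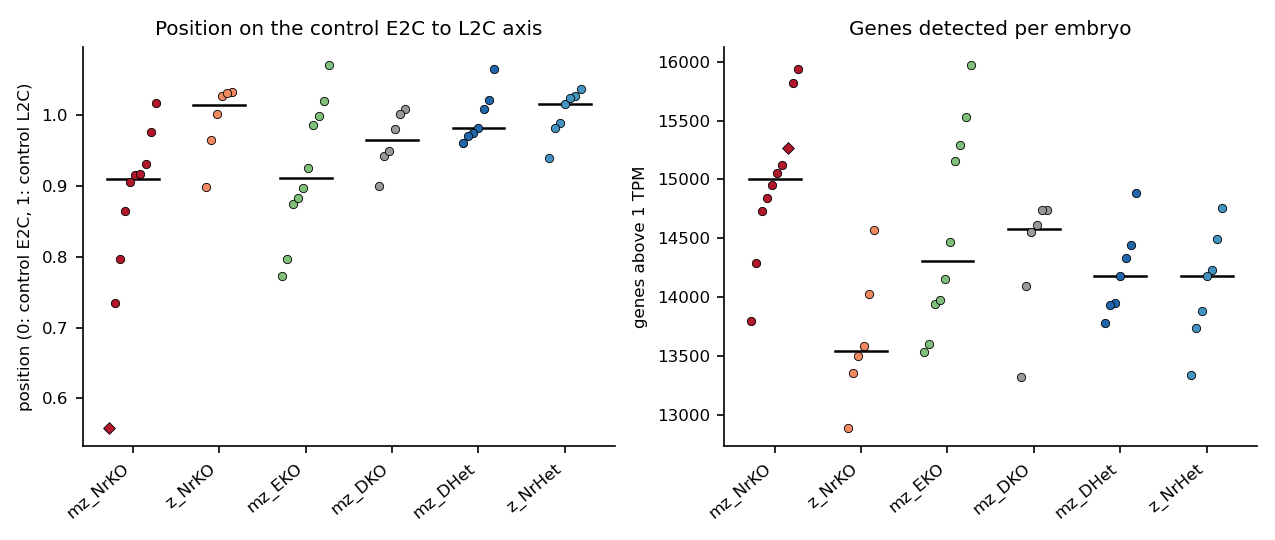
Position of each late 2-cell embryo between control early 2-cell embryos (0) and the mz_DHet and z_NrHet embryos that define 1 (left), and genes above 1 TPM per embryo (right). Points are embryos, lines are medians and the diamond is mz_NrKO library 6, which lies at 0.558. The mz_NrKO embryos reach lower positions than z_NrKO, and z_NrKO embryos have the lowest median number of genes.

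Each kind of loss was also set against heterozygous embryos, in libraries that are not shared between the contrasts. Nearly every gene called was lower in the knockout. Only 2 of the 7 mz_DHet embryos share the date of mz_NrKO, so the mz contrast rests in part on the date term, and levels given for mz_DHet mix 22 May and 8 March. In mz_NrKO 18 genes fell against mz_DHet and 0 rose (0.127% of 14147 genes tested). In z_NrKO 13 fell against z_NrHet (0.0919%) and 1 rose, 0.099% in all. The 5 genes called in both were Tulp1, Igf2r, Tlk2, Marchf9 and Ccdc137, which is 27.8% of the mz list and 38.5% of the z list. Of the 18 genes of the mz list, 18 lay below 0 in z_NrKO minus z_NrHet, where 54.4% of all genes tested did, and their median there was -1.28 against -0.05 over all genes. Of the 13 genes of the z list, 13 lay below 0 in mz_NrKO minus mz_DHet, with a median of -2.10 against 0.02 over all genes. These contrasts share no embryo, but share the estimate of spread. All embryos of the z contrast are dated 8 March, so the date term enters only the mz difference.

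Tulp1, which encodes a tubby-like protein, was nearly silent in both knockouts. It had a lowest, median and highest level of 0, 0.262 and 2.51 TPM in mz_NrKO and of 0, 0.254 and 0.618 TPM in z_NrKO. The mz_DHet embryos held 8.97, 32.4 and 62.8 TPM and the z_NrHet embryos 0.441, 21.3 and 36.8 TPM, so mz_DHet did not overlap with its knockout, and z_NrHet did. The mz_DHet embryos dated 8 March had 8.97 and 29.7 TPM. The log2 difference was -3.86 ± 0.68 for mz_NrKO (limma, adjusted p = 0.00539) and -3.40 ± 0.58 for z_NrKO (adjusted p = 0.00593). Between the knockouts it was 0.27 ± 0.54 (adjusted p = 0.82). The authors' deposited table gives log2 fold changes of -5.16 for mz_NrKO, at a stage it calls 2C, and -5.41 for z_NrKO at L2C, with false discovery rates of 8.08e-05 and 0.000593.

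Ccdc137 fell to a similar level in both. Its median was 65.5 TPM in mz_NrKO (range 35.1 to 111.1) and 56.2 TPM in z_NrKO (43.4 to 104.5). In mz_DHet the median was 179 TPM (144 to 251), and in z_NrHet 162 TPM (93.98 to 224). The differences from the heterozygous embryos were -1.52 ± 0.28 and -1.27 ± 0.24 (adjusted p = 0.0056 and 0.00885), while the knockouts differed by -0.04 ± 0.22. Tlk2, a kinase that acts on histone chaperones, had medians of 28.8 TPM in mz_NrKO and 35.0 in z_NrKO against 167 in mz_DHet and 128 in z_NrHet. Its difference between the knockouts was -0.02 ± 0.37. Marchf9, an E3 ubiquitin ligase, had medians of 1.15, 1.14, 8.30 and 6.95 TPM in the same order, and the knockouts differed by 0.26 ± 0.41. For mz_NrKO the authors' deposited table gives log2 fold changes of -1.24 for Ccdc137, -1.11 for Tlk2 and -2.77 for Marchf9. Their false discovery rates there are 0.122, 0.548 and 0.0509, against 2.69e-05, 3.85e-07 and 0.0326 in z_NrKO.

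Igf2r, the imprinted receptor that clears Igf2, had the lower level in mz_NrKO. Its lowest, median and highest values were 8.45, 23.7 and 36.4 TPM in mz_NrKO and 17.1, 55.7 and 59.0 TPM in z_NrKO. The heterozygous embryos held medians of 100.8 TPM in mz_DHet and 151 TPM in z_NrHet. Both knockouts were below their controls, by -2.10 ± 0.39 and -1.76 ± 0.34 (adjusted p = 0.00597 and 0.00885). The direct difference of -1.02 ± 0.31 did not pass (adjusted p = 0.077), and mz_EKO also differed from z_NrHet in this gene. The authors' deposited table gives -2.02 and -1.69 with false discovery rates of 0.00137 and 3.26e-06.

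Over the 18 genes of the mz list, the median difference between mz_NrKO and z_NrKO was -0.28, and over the 13 of the z list it was 0.27, against 0.11 over all genes. Choosing genes low in one group moves such a median towards that group, so neither sign is a result. Only 1 of the 18 and 0 of the 13 were called in the direct comparison (0.792% of all genes tested). That gene was Itpkc, an inositol trisphosphate kinase, with 25.9, 41.9 and 124 TPM in mz_NrKO and 69.2, 98.6 and 139 TPM in z_NrKO as lowest, median and highest values. It fell by 1.08 ± 0.25 in mz_NrKO against z_NrKO (adjusted p = 0.0335), but not without library 6 (adjusted p = 0.0736). Oaz3, an ornithine decarboxylase antizyme known from testis, was the gene that rose in z_NrKO. It ranged from 19.9 to 51.2 TPM in z_NrKO and from 0 to 9.79 TPM in z_NrHet (3.38 ± 0.64, adjusted p = 0.00885), with 0 to 26.6 TPM in mz_NrKO and 0.374 to 19.6 TPM in mz_DHet. Without library 6 the counts of fallen genes were 15 and 15, and the same 5 genes were in both. Leaving out 1 of the mz_DHet embryos dated 8 March, replicate 6 or 7, lowered the mz count to 4 or 8. In UMI reads limma called 0 genes between mz_NrKO and mz_DHet, where 853 had an unadjusted p below 0.05, and 2 between z_NrKO and z_NrHet. Of the mz list 17 genes were tested there, and 17 lay below 0 in both contrasts, where 50.3% of all genes did in the mz and 53.7% in the z contrast. Of the z list 11 were tested, of which 11 lay below 0 in the z contrast and 10 in the mz contrast, with Dusp10 at 0.17. The UMI reads come from the same embryos, so the signs of a list in the contrast that chose it follow in part from the choice. On 8 March alone, with 2 mz_DHet embryos and 17598 genes tested, 6 genes were called in the mz contrast, 2 of them among the 18, and 13 in the z contrast, 11 of them among its 14.

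**Figure D2:**
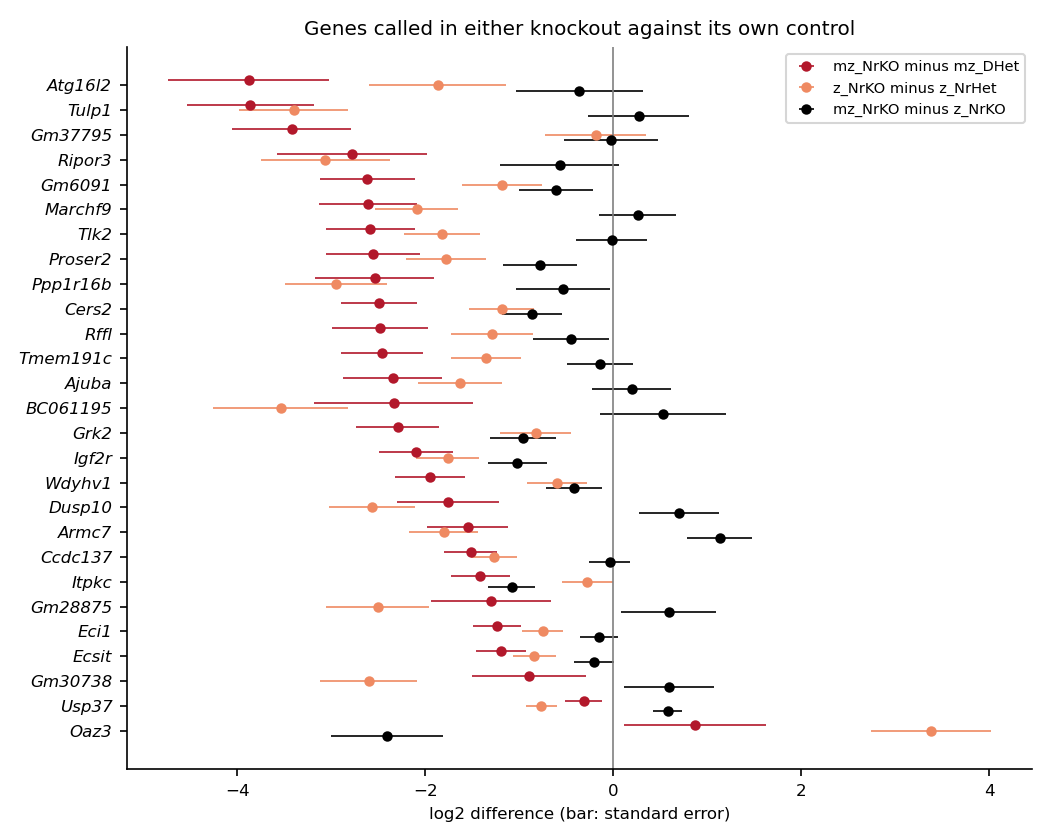
The 27 genes called in either knockout against its own heterozygous control, ordered by the log2 difference of mz_NrKO minus mz_DHet (red). Orange points show z_NrKO minus z_NrHet, black points the direct difference between the knockouts, and bars are standard errors. For Tulp1, Tlk2 and Ccdc137 the red and orange points lie below 0 and the black point lies near 0.

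The promoter of 1 of these genes held the half-site that Nr5a2 is known to recognise. Promoters of 250 bases before to 50 after the start were taken from RefSeq (GRCm38.p6) and searched on both strands for TCAAGGNCA. Of the 27 genes, 19 had a promoter entry and 1 held the motif (5.26%), against 131 of 9567 genes tested (1.37%), and 0 of the 73 entries among genes called between the knockouts. It was Tmem191c, a transmembrane protein gene, shown here with the motif, which lies on the opposite strand, in capitals (chr16:17276050-17276349, plus strand).
Tmem191c: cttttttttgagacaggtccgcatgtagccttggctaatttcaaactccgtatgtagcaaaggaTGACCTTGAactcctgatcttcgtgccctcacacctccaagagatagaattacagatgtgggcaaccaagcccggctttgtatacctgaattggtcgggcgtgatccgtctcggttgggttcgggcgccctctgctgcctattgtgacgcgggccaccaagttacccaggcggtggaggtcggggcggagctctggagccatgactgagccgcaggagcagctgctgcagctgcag
Tmem191c had medians of 36.1 TPM in mz_NrKO, 30.6 in z_NrKO, 124 in mz_DHet and 78.1 in z_NrHet. It fell by 2.46 ± 0.44 in mz_NrKO against mz_DHet (limma, adjusted p = 0.00539), while in z_NrKO the difference of -1.36 ± 0.37 did not pass (adjusted p = 0.139). A match is a description of the letters, not a binding site.

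In the direct comparison, 86 genes were higher (0.608% of 14147 tested) and 26 lower (0.184%) in mz_NrKO than in z_NrKO, 112 in all (0.792%; limma, adjusted p under 0.05). Of these, 97 differed at least 2-fold. Without library 6 the count was 19, 13 higher and 6 lower (0.135%), and all 19 were among the 112. Of those 19, 13 are genes with a name outside the predicted genes and pseudogenes, and they are described first. They were picked for passing with and without library 6. In a fit of the 2 groups alone, where no other embryos set the spread, 2 of 11475 genes passed, 0 higher and 2 lower in mz_NrKO. None of the higher genes described next passed there.

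Of the 13, 9 were higher in mz_NrKO. Msantd3, which encodes a protein with a Myb-like domain, had a lowest, median and highest level of 3.27, 19.5 and 41.9 TPM in mz_NrKO and of 0, 1.65 and 5.42 TPM in z_NrKO. It exceeded every z_NrKO embryo in 9 of 10 mz_NrKO embryos (2.93 ± 0.48, adjusted p = 0.00289, and 0.00488 without library 6). The z_NrHet embryos spanned 1.90 to 15.8 TPM and the mz_EKO embryos 2.06 to 26.6 TPM, between the knockouts. Cenpk, a subunit of the constitutive centromere complex, ranged from 11.9 to 56.5 TPM around a median of 22.4 in mz_NrKO and from 2.29 to 13.3 TPM around 5.31 in z_NrKO. Its difference was 1.97 ± 0.36 (adjusted p = 0.00717), with 9 of 10 mz_NrKO embryos above all z_NrKO embryos.

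Polh, the translesion DNA polymerase eta, stood at 28.1, 44.6 and 69.9 TPM in mz_NrKO and at 14.6, 18.6 and 38.5 TPM in z_NrKO (lowest, median and highest; 1.09 ± 0.23, adjusted p = 0.0191). Of the mz_NrKO embryos 7 exceeded every z_NrKO embryo, and the mz_EKO and z_NrHet embryos differed by 0.02. In UMI reads Polh ranged from 6.72 to 20.7 TPM in mz_NrKO and from 1.93 to 14.2 TPM in z_NrKO, with overlap. Rhot1, a GTPase of the outer mitochondrial membrane, stood at 229, 254 and 366 TPM against 94.4, 185 and 236 TPM (0.77 ± 0.17, adjusted p = 0.0259), with 8 of 10 mz_NrKO embryos above all z_NrKO embryos. Tpt1, a small translationally controlled protein, had medians of 546 and 274 TPM with overlap (0.83 ± 0.18, adjusted p = 0.0217). Naa50, an N-terminal acetyltransferase, had medians of 237 and 137 TPM (0.77 ± 0.17, adjusted p = 0.0217), and Fam199x of 59.8 and 26.8 TPM (1.09 ± 0.22, adjusted p = 0.0177). In both of these 9 of 10 mz_NrKO embryos lay above all z_NrKO embryos. Mctp2, a membrane protein with C2 domains, had medians of 8.89 and 0.101 TPM (2.56 ± 0.55, adjusted p = 0.0217). Erdr1, a gene of the pseudoautosomal region, had a median of 43.5 TPM in mz_NrKO and was listed at 0 in most z_NrKO embryos, where its highest value was 24.8 TPM (3.75 ± 0.76, adjusted p = 0.0154). In UMI reads its difference was -0.36, in the opposite direction.

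Of the 13, 4 were lower in mz_NrKO. Yme1l1, a protease of the inner mitochondrial membrane, had values of 89.9, 165 and 333 TPM in mz_NrKO against 356, 427 and 582 TPM in z_NrKO (lowest, median and highest). The groups did not overlap, which held for 16 genes in all (0.113% of those tested), and the difference was -1.47 ± 0.26 (adjusted p = 0.00514). In UMI reads it was -0.35 (adjusted p = 0.501). Ctnnbl1, a protein associated with the spliceosome, had values of 62.0, 287 and 584 TPM against 451, 752 and 1073 TPM, with 7 of 10 mz_NrKO embryos below all z_NrKO embryos. It differed by -1.52 ± 0.29 (adjusted p = 0.00848) and also passed in UMI reads (-1.37, adjusted p = 0.0376). Trim28, the corepressor that silences transposable elements together with KRAB zinc finger proteins, had values of 552, 722 and 973 TPM against 896, 1105 and 1396 TPM. Of the mz_NrKO embryos 9 lay below all z_NrKO embryos (-0.64 ± 0.13, adjusted p = 0.0154, and 0.0185 without library 6). Kank4, an ankyrin-repeat protein of the cytoskeleton, had medians of 6.15 and 60.3 TPM, with 8 of 10 mz_NrKO embryos below all z_NrKO embryos (-2.98 ± 0.63, adjusted p = 0.0197).

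**Figure D3:**
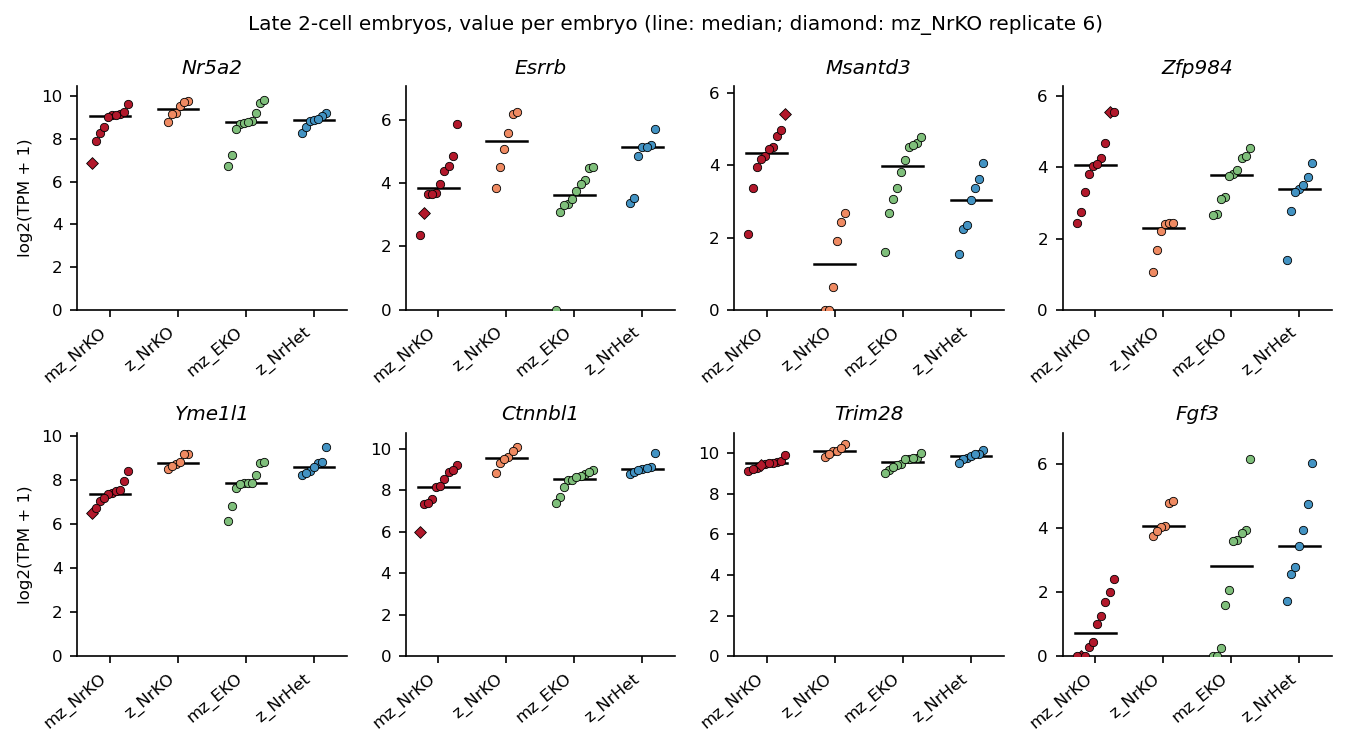
Level of 8 genes in single late 2-cell embryos of 4 groups, as log2(TPM + 1). Points are embryos, lines are medians and the diamond is mz_NrKO library 6. The Nr5a2 message overlaps between all groups, Msantd3 and Zfp984 lie higher in mz_NrKO than in z_NrKO, and Yme1l1 and Fgf3 do not overlap between mz_NrKO and z_NrKO.

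Other genes passed with all embryos but not without library 6. Fgf3, a fibroblast growth factor ligand, was at 0, 0.697 and 4.32 TPM in mz_NrKO and at 12.6, 15.6 and 27.8 TPM in z_NrKO, with no overlap. Its difference was -3.32 ± 0.76 (adjusted p = 0.0259, and 0.0607 without library 6), and it passed in UMI reads (-2.68, adjusted p = 0.0447). The z_NrHet embryos spanned 2.28 to 65.0 TPM and mz_EKO 0 to 71.1 TPM, across both knockout groups. Zfp984, a zinc finger protein, exceeded all z_NrKO embryos in 10 of 10 mz_NrKO embryos (2.01 ± 0.43, adjusted p = 0.0217, and 0.0552 without library 6). The larger rises also held the Hedgehog effector Gli3 (2.76), Samd10 (2.73), Mid1 (2.43), a gene at the pseudoautosomal boundary, the adhesion molecule Cntn6 (2.42), Lrch1 (2.23), the RNA Snhg6 (2.20), Tceanc2 (2.19), the ubiquitin ligase Marchf8 (2.12) and the microfibril protein Mfap2 (2.11). The larger falls held Gchfr (-2.86), which regulates tetrahydrobiopterin synthesis, Oaz3 (-2.41), integrin beta 7 (Itgb7, -2.40), Tulp2 (-2.22), the cysteinyl-tRNA synthetase Cars (-1.19), the elongation factor subunit Eef1d (-1.05) and the complex III subunit Uqcrc1 (-0.999). Their adjusted p lay between 0.0259 and 0.0415 for all but Cars, at 0.0421. Each fall is relative to z_NrKO. For Oaz3, Itgb7 and Tulp2 the authors' deposited table gives rises in z_NrKO at L2C, with log2 fold changes of 3.41, 1.46 and 1.98. Their false discovery rates there are 0.000391, 0.0183 and 0.0292, against 0.782, 0.976 and 0.999 in mz_NrKO. Predicted genes, clones and pseudogenes made up 29 of the 112 calls. The largest differences were among them, such as the processed pseudogene Gm13577, with a median of 1296 TPM in mz_NrKO and 9.51 TPM in z_NrKO (6.32 ± 1.10, adjusted p = 0.0046). In UMI reads Gm13577 was listed at 0 in every mz_NrKO and z_NrKO embryo, so its difference was not seen there. Reads of such copies cannot be assigned with certainty.

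UMI reads of the same embryos called 88 genes, 71 higher and 17 lower (0.748% of 11766 tested), and 33 (0.283%) without UMI library 3. Of the 112 full-length calls 85 were tested in UMI reads, where 81 had the same sign and 9 were called, all in the same direction. Beside Ctnnbl1, Fgf3 and Rhot1 these included the kinase Jak2 and Ccndbp1.

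The number of calls rested on single embryos. Leaving out mz_NrKO replicate 3, 6 or 8 gave 20, 19 and 18 calls. Leaving out z_NrKO replicate 3, 4, 5 or 6 gave 19, 17, 12 and 39. Leaving out mz_NrKO replicate 5 or 7, or z_NrKO replicate 1, gave 363, 555 and 627. The first 3 are the lowest of mz_NrKO on the axis and replicates 5 and 7 the highest, whereas z_NrKO replicate 1 is the lowest of its group. With the position as a covariate, added after seeing the data, 1 gene passed, the pseudogene Gm13577 (0.00707%), and 112 of the 112 kept their sign with a median size of 1.08 against 1.81. The position is computed from the same libraries, so this adjustment also removes any part of a genotype effect that lies along the axis. The 112 genes were chosen in these same embryos, so their signs after adjustment follow in part from the choice.

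**Figure D4:**
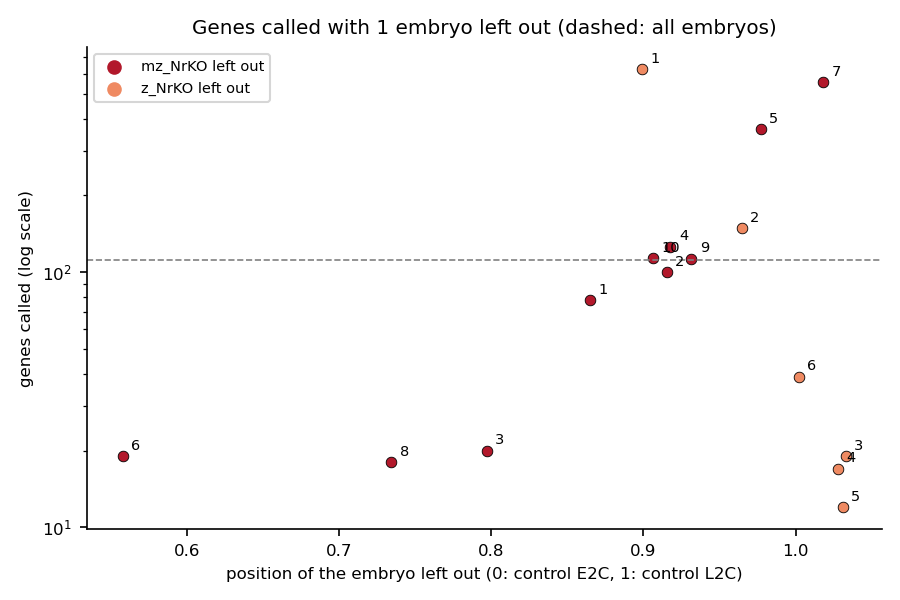
Genes called between mz_NrKO and z_NrKO (log scale) when 1 embryo is left out, against the axis position of that embryo. Red points are mz_NrKO and orange points z_NrKO embryos, labelled by replicate, and the dashed line is the 112 calls with all embryos. Leaving out mz_NrKO embryos at low positions gives 18 to 20 calls and leaving out those at high positions gives 363 and 555.

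Many of the genes called higher were messages that fall from E2C to L2C in control embryos, where stage and date go together. Genes at least 4-fold lower at L2C in both mz_DHet and z_NrHet than in mz_Nrpp embryos (wild-type or floxed alleles) at E2C numbered 2631, of which 1979 were above the filter on low values at L2C. Of these, 44 were called higher in mz_NrKO than in z_NrKO (0.608% of all genes tested were) and 0 lower, and their median difference was 0.71 against 0.11 over all genes tested. A falling gene can pass the filter through embryos that still hold its message, so this median and these counts can depend on the filter. Of 3075 genes that rise at least 4-fold, 7 were called higher and 15 lower (0.184% of all genes tested), with a median of -0.27. Their summed level was 37780 to 139300 TPM in mz_NrKO and 33620 to 54720 TPM in z_NrKO for the falling genes. The medians of these sums were 55490 and 39300 TPM. Without library 6 the falling genes had 5 called higher and 0 lower of 1936 tested, with a median of 0.60, and the rising genes 4 and 4, with a median of -0.15. With the position as covariate, which is built from much the same genes, the medians were 0.12 and 0.08. The shift was not confined to the knockout comparison. In mz_EKO minus z_NrHet, which shares no embryo with it, the falling genes had a median of 0.49 and the rising genes of -0.25. Over all genes tested the median there was 0.04.

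Of 39 tested oocyte and maternal genes, 2 were called higher and 1 lower (0.608% and 0.184% of all genes tested), with a median of 0.85 against 0.11 over all genes. Oosp3, a secreted oocyte protein, had values of 4.50, 22.2 and 109 TPM in mz_NrKO, the last in library 6, and of 0, 5.44 and 11.3 TPM in z_NrKO (2.10 ± 0.50, adjusted p = 0.037). Nlrp2, of the maternal complex under the egg cortex, was at 3.08, 6.51 and 20.3 TPM against 0, 1.502 and 2.41 TPM, without overlap (2.09 ± 0.54, adjusted p = 0.0448). The deadenylase Cnot6l had a difference of 1.28 that did not pass (adjusted p = 0.0517). The lower gene was Trim28. Without library 6 neither Oosp3 nor Nlrp2 passed (adjusted p = 0.0828 and 0.0785), and the median of the list was 0.70. The same list had a median of 0.39 in mz_EKO minus z_NrHet, against 0.04 over all genes.

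Of the genes of the 2-cell burst, the brief wave of transcription after genome activation, 0 of 41 passed in limma, with a median of 0.26. Their median in mz_EKO minus z_NrHet was 0.70. Zscan4f, of the family that marks this burst, had values of 4.66, 25.2 and 172 TPM in mz_NrKO, the last in library 6, and of 0, 7.70 and 20.9 TPM in z_NrKO (2.02 ± 0.63, adjusted p = 0.0846). Zscan4d had medians of 15.96 and 6.87 TPM (1.65 ± 0.62, adjusted p = 0.139), Pramef25 differed by 2.89 and Obox5 by 1.26. For maternal RNA decay 0 of 41 passed, with the poly(A) nuclease subunit Pan2 at 0.97 and the Y-box protein Ybx2 at 1.00 (adjusted p = 0.0794 and 0.093).

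Genes of translation and respiration had medians below 0. The 77 tested cytosolic ribosomal proteins had a median of -0.43 with 6.49% of members above 0, where 56.4% of all genes were, and their summed level was 11270 to 28240 TPM in mz_NrKO and 19890 to 33360 TPM in z_NrKO. Rpsa (-0.73) and Rpl8 (-0.83) did not pass (adjusted p = 0.0534 and 0.061), and Rpl12, with near-identical copies in the genome, differed by 2.24 without passing (adjusted p = 0.0548). In mz_EKO minus z_NrHet, which shares no embryo with this comparison, the same list had a median of -0.36. Ribosome biogenesis had a median of -0.25 with 0 of 60 called, led by the processing factor Wdr43 (-0.68, adjusted p = 0.0597). Oxidative phosphorylation had a median of -0.25 with 1 of 74 called (1.35%, against 0.792% of all genes), Uqcrc1, and 0 without library 6. Ndufv2 differed by -0.97 (adjusted p = 0.0627). The medians in mz_EKO minus z_NrHet were -0.18 for ribosome biogenesis and -0.41 for oxidative phosphorylation. With the position as covariate, medians between the knockouts were 0.02 for ribosomal proteins, 0.10 for ribosome biogenesis and 0.13 for oxidative phosphorylation.

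Few lineage or cell cycle genes were called. Of 51 tested genes of polarity, adhesion and Hippo signalling, 1 was called (1.96%, against 0.792% of all genes), the polarity scaffold Pard3, with medians of 167 and 42.9 TPM and 543 TPM in library 6 (1.62 ± 0.41, adjusted p = 0.0416, and 0.0944 without library 6). No gene passed among 21 of trophectoderm (median -0.04), 23 of inner cell mass and pluripotency (-0.37), 9 of primitive endoderm (-0.00), 63 of mitosis (0.04), 54 of DNA replication (0.02), 61 of DNA repair (-0.01), 33 p53 targets and apoptosis genes (0.05), 5 known Nr5a2 targets from liver and steroidogenic tissue (0.38), 32 of stress response (0.03) and 26 of cholesterol synthesis (0.14). Examples with the smaller p were the kinetochore gene Zwint (0.80, adjusted p = 0.0637), the repair scaffold Xrcc1 (-1.31, adjusted p = 0.0683), the p53 target Aen (-0.79, adjusted p = 0.0804) and Hmgcs1 of the cholesterol pathway (0.71, adjusted p = 0.122). Of 6 genes that earlier results of these data had found lower in mz_NrKO at this stage, 0 passed, with a median of -0.04. Such a choice moves this median towards mz_NrKO, so its sign is not a result. In z_NrKO minus z_NrHet the same 6 had a median of -1.72, with 3 called lower (0.0919% of all genes tested). Between the knockouts Ajuba, a LIM-domain protein, differed by 0.19 ± 0.42 and the ceramide synthase Cers2 by -0.86 ± 0.32 (adjusted p = 0.131). Of 93 tested genes within 10 Mb of Nr5a2, 1 was called, Gm19705 (2.26), which at 1.08% is near the 0.792% of all genes, and of 146 within 10 Mb of Esrrb 0 were.

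**Figure D5:**
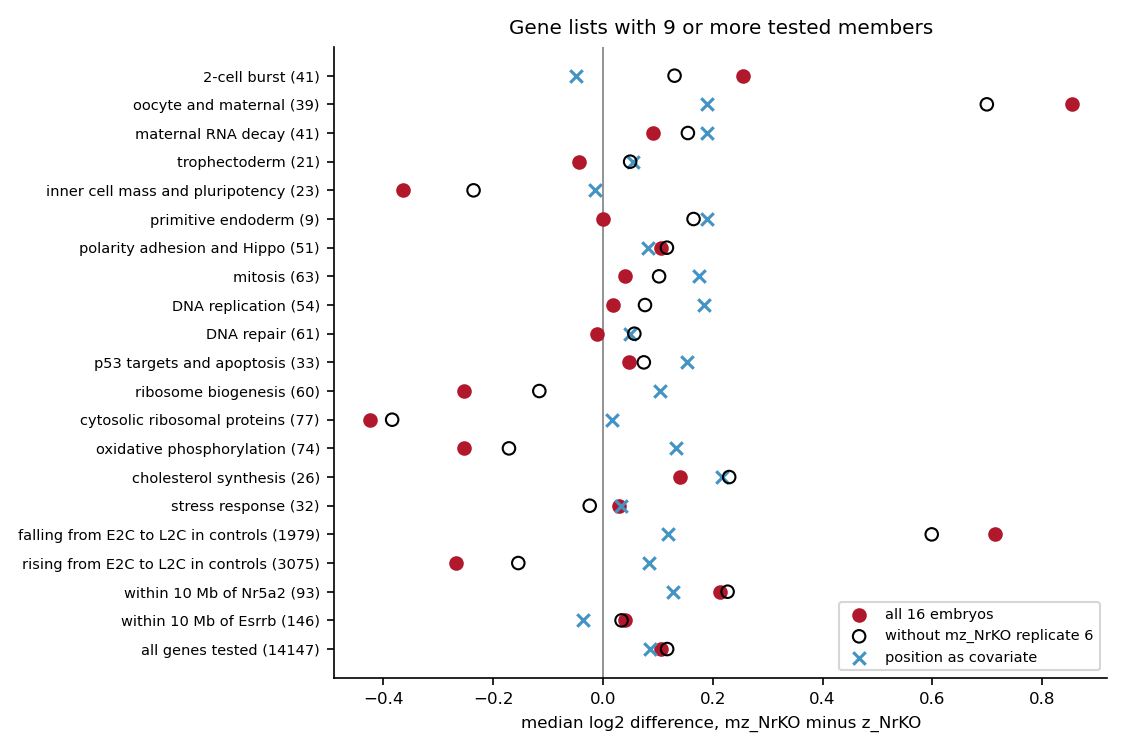
Median log2 difference of mz_NrKO minus z_NrKO for each list with at least 9 tested members (number in brackets). Red points use all 16 embryos, open circles leave out mz_NrKO library 6 and crosses have the axis position as covariate. Oocyte genes (0.85) and genes falling in controls (0.71) lie highest, and cytosolic ribosomal proteins (-0.43) lowest.

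Most markers of other cells were low, with exceptions. Of 20 cumulus and granulosa markers 17 had a median under 1 TPM over the 16 embryos, the others being Amhr2 at 176.0 TPM, Kitl at 11.8 and Bmpr1b at 10.5. Of 15 blood markers 11 were under 1 TPM, with Coro1a highest at 17.9. Of 14 sperm and testis markers 12 were, with Ldhc highest at 18.7, and the protamines Prm1 and Prm2 were under 1 TPM in every embryo. The oviduct list was carried by Tubb4b and Epcam, which embryos express themselves, and 7 of its 12 members had a median under 1 TPM. None of the tested members of these lists or of the Y chromosome list passed.

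Other mz and z embryos were compared in the same way. In mz_EKO against z_NrHet, which differ in Esrrb, in the Nr5a2 allele and in part in date as well as in numbering, 13 genes passed (0.0919%), 10 higher and 3 lower, with 2227 at an unadjusted p under 0.05, and on 8 March alone limma called 0, with 2392 at such a p. Of the 112 genes called between the knockouts, 95.5% had the same sign in that contrast, where 68.7% of all genes did, with a median size of 0.75 against 1.81. Only Gm23798 and Gm25070, both predicted microRNA genes, were called in both. In mz_DHet minus z_NrHet, 91 of the 112 had the same sign (58.6% of all genes), with a median size of 0.49. For Msantd3 the mz_EKO contrast was 1.17, for Yme1l1 -0.77, for Ctnnbl1 -0.76 and for Trim28 -0.41, and none of these passed (adjusted p between 0.129 and 0.223).

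The difference of the knockout effects itself was then tested, with the date term in place for the mz_DHet and mz_EKO embryos of other dates. With mz_DHet and z_NrHet as controls, limma called 0 genes, with 729 below an unadjusted p of 0.05. With mz_EKO in place of mz_DHet it called 0 again, with 710 below that value. Msantd3 differed by 2.50 and Trim28 by -0.74 in the first of these tests, both at an adjusted p of 0.925. On 8 March alone, with 2 mz_DHet embryos, 3 genes passed, all lower. In the direct comparison limma had 2702 genes at an unadjusted p below 0.05. A difference of effects has a larger standard error than the direct comparison, so 0 calls do not show that the effects are equal.

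Between stages the comparison changed. Against the same contrast at E2C (22 mz_NrKO and 12 z_NrKO embryos), 1297 genes differed (7.33% of 17694 tested), 1152 upward (6.51%) and 145 downward (0.819%). Among genes expressed at both stages, a setting added after seeing the data, the count was 1187 of 11703 (10.1%). Without library 6 it was 846. Stage and date could not be separated, and genes silent at one stage have little spread there, which the shared estimate of spread does not follow. Zscan4f was lower in mz_NrKO at E2C by 2.08 on the log2 scale and higher at L2C by 2.02, a change of 4.10 (adjusted p = 0.0197). Over the 43 burst genes tested at both stages the median was -0.44 at E2C, and 5 changed upward and 0 downward. Of 40 oocyte and maternal genes 16 changed upward and 0 downward, with a median of -0.14 at E2C. Msantd3 changed by 3.52 (adjusted p = 6.35e-11), from -0.59 at E2C.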

How the data were processed

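Values per library are transcript abundances (TPM) made by the authors and deposited for full-length and UMI reads. The submitters' processing notes name cutadapt, STAR, RSEM, DESeq2 and mm10 without versions. Per the file headers, the authors' deposited tables also give log2 fold changes and false discovery rates (adjusted p-values). TPM keep no read counts, so depth is unknown, and full-length columns summed to between 887003 and 982635 TPM at this stage because 65 rows without a gene name were left out. All tests used log2(TPM + 1), a scale on which changes of low genes look smaller than they are. Genes at 5 TPM or more in at least 6 late 2-cell libraries were tested with limma-trend 3.58.1 (R 4.3.3) in 1 fit of all 46 embryos, with group and date as factors, two-sided, and called at a Benjamini-Hochberg adjusted p under 0.05. Mothers and litters are not given in the labels. Embryos may be littermates, and the p-values reflect only how embryos vary. The stage comparison used a joint fit. Positions come from GENCODE vM21 (mm10), which placed 13861 of 14147 genes. Fits were run on simulated data with independent errors and, for each gene, the same spread in every group. Embryos that differ together along the axis were not simulated, so this could not check how calls depend on single embryos.

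The genes named are Nr5a2 and Esrrb, the 12 genes that rose most and the 12 that fell most of those called and reaching a mean of 10 TPM in either group, without predicted genes and pseudogenes, and up to 4 members of each list with the smallest p. Genes called against heterozygous controls, and those called with and without library 6, were added after seeing values. The members and lists were chosen with earlier results of these data known. Alternatives were the pseudocount, the filter, scaling, date, library weights, a replicate block and leaving out each embryo. Results for 1 member of the lists are not reported here.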

Additional observations from a re-analysis of the deposited data

Results flagged for a closer look

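Of 56 sets of values checked, each from 1 group of embryos, 2 held an embryo far from the others of its group, where chance gives about 1 in 20. Gchfr reached 10.8 TPM in mz_NrKO replicate 7, and Itgb7 was listed at 0 in mz_NrKO replicate 6. For the following genes the difference between mz_NrKO and z_NrKO was not the same at L2C and E2C (joint limma fit, adjusted p under 0.05). On the log2 scale the change from E2C to L2C was upward for Msantd3 (3.52), Erdr1 (3.45), Gli3 (3.22), Samd10 (3.13), Cntn6 (3.07), Snhg6 (2.75), Mid1 (2.70), Mctp2 (2.36), Lrch1 (2.31), Mfap2 (2.20), Tceanc2 (2.09) and Marchf8 (2.02). It was downward for Fgf3 (-3.32), Kank4 (-2.83), Gchfr (-2.80), Oaz3 (-2.47), Itgb7 (-2.21), Esrrb (-1.72), Yme1l1 (-1.54), Ctnnbl1 (-1.54), Cars (-1.14) and Eef1d (-1.13). Except for Esrrb, these genes were chosen for their difference at L2C, so an L2C difference beyond that at E2C follows in part from the choice.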

How the results depend on the processing

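The 112 calls between mz_NrKO and z_NrKO became 20 with no filter on low values, 61 with a filter at 1 TPM, 32 on 8 March alone, 73 with library weights, 2 in a fit of the 2 groups alone, 1 with position as covariate and 0 with position and without library 6. They ranged from 12 to 627 with 1 embryo left out. The 88 calls in UMI reads became 39 with no filter and 19 in the 2 groups alone, and ranged from 20 to 254. The 13 of mz_EKO against z_NrHet became 37 with pseudocount 5, 6 with no filter and 0 on 8 March alone, and ranged from 0 to 97, reaching 0 without mz_EKO replicate 7 and 97 without mz_EKO replicate 5. The difference of effects had 5 calls with no filter and 3 on 8 March alone, and 0 to 1 with mz_EKO and 1 embryo left out. The stage comparison ranged from 837 to 1842. The 18 calls of mz_NrKO against mz_DHet became 28 with no filter, 6 on 8 March alone, 0 in UMI reads and 9 with position, and ranged from 4 to 19. The 14 of z_NrKO against z_NrHet became 9 with pseudocount 0.1, 22 with pseudocount 5, 2 in UMI reads and 45 with position, and ranged from 9 to 20. The causes were not tested.

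Replicate numbers did not pair the embryos (correlations of deviations between -0.132 and 0.171), and with the replicate block 2 genes passed in full-length reads, 3 in UMI reads and 0 in the difference of effects.

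With position as covariate the sign turned for Nr5a2 (0.11, also 0.11 without library 6), Klf2 (0.16), Dab2 (-0.29 and -0.43), Scarb1 (-0.20 and -0.31), Gls2 (0.46 and 0.44), Ccdc137 (0.17 and 0.16, and 0.067 with library weights), Tmem191c (0.11) and, without library 6, Ajuba (-0.026). Leaving out 1 embryo moved Tlk2 between -0.36 and 0.19, Ccdc137 between -0.14 and 0.11, Tmem191c between -0.26 and 0.059, Ajuba between -0.026 and 0.45 and Shbg between -0.032 and 1.02. Depth is unknown, so low genes such as Tulp1 can be read only against the spread between embryos.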
